A study of Monodelphis domestica and Mus musculus with 2 samples.

Results

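L5PT cells of mouse primary visual cortex (V1) are the layer 5 glutamatergic cells that the deposited labels name pyramidal tract neurons. They were taken as the cells of the V1 regions that passed the authors' filter and carried both the class label glutamatergic and the subclass label L5PT. This gave 256 cells, 4.10% of the 6245 glutamatergic cells among 9127 filtered cells in the mouse V1 regions, where the whole series held 13933 filtered V1 cells from 2 species. Another 6 cells with the subclass label L5PT carried a different class label and were left out.

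The study placed mouse and opossum V1 side by side by spatial transcriptomics and used the cell positions to ask how subclasses are arranged across the cortical layers. The mouse sample was cortex cut into 10 µm sections from 1 adult male wild-type C57BL/6J mouse of postnatal day 40, profiled by Stereo-seq, in which polyadenylated RNA is captured on a chip of barcoded spots and unique molecular identifiers (UMIs) are summed over segmented cells. The 256 L5PT cells came from 4 V1 regions, with 80, 57, 62 and 57 cells in regions 1 to 4. The regions share 1 animal and 1 library. By the study's account they lie in several sections, but which region lies in which section was not given in the sources used here. So they are not biological replicates, no p-value was computed, and intervals in the text are exact 95% intervals for counting error only.

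Pyramidal tract neurons send their main axon out of the telencephalon, and in V1 their targets include the superior colliculus and the pons. They are the large, thick-tufted pyramidal cells of layer 5, whose apical dendrites reach layer 1. Intratelencephalic (IT) neurons, of which L5IT is the layer 5 subclass, instead connect cortical areas and striatum. Fezf2 is the transcription factor that sets the subcerebral fate during development, with Bcl11b (also called Ctip2) downstream of it.

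The labels were given by nearest-neighbor comparison of these same transcriptomes with a single-nucleus atlas of other mice. Levels of genes in L5PT are therefore descriptions of the labelled cells, whereas position, neighbors and the number of UMIs per cell were not criteria of the labelling. Levels are UMIs of a gene per 10000 UMIs summed over the cells of a subclass. L5PT held 492346 UMIs, L5IT held 208818 over 133 cells, and L5NP, the near-projecting subclass of layer 5, held 78537 over 59 cells. The other 4 of the 7 subclasses compared held 1406 (L2/3), 1879 (L4), 407 (L6IT) and 1156 (L6CT) cells. L6b, with 26 cells, and glutamatergic cells without a subclass were left out. The whole mouse sample held 120239 segmented cells with a median of 1134 UMIs, and filtered V1 cells had a median of 1305 (104 to 4397). The barcodes of the 2 species carry different prefixes, so none could be shared as written. Without the prefix, 43 barcodes occurred in both the mouse and the opossum files.

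RNA from glutamatergic neurons was counted in cells of every class. Slc17a7, the vesicular glutamate transporter of cortical pyramidal cells, reached 8.0 UMIs per 10000 in L5PT and 10.8 in non-neuronal cells, and 67.2% of L5PT cells and 63.7% of non-neuronal cells had at least 1 UMI of it, at median depths of 1916 and 1245 UMIs. At 500 UMIs per cell the shares were 32.3% and 37.9%. The non-neuronal level is therefore given for most genes named in the comparisons between subclasses, and a level at or below it is not read as expression by L5PT. Where it is not given, a call is not read as expression by L5PT either.

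The 3 genes that mark the subclass gave a mixed picture. Fezf2 (GRCm39, chromosome 14, 10121574 to 10127680) was at 1.45, 0.92, 1.57 and 1.32 in L5PT of regions 1 to 4, against 0.56, 1.57, 0.30 and 0.40 in L5IT. L5PT was the higher of the 2 in regions 1, 3 and 4 and the lower in region 2. Pooled, Fezf2 was at 1.32 in L5PT (1.02 to 1.68), 0.62 in L5IT and 0.46 in non-neuronal cells, a ratio to L5IT of 2.12 (1.16 to 4.19), and leaving out 1 region at a time moved that ratio between 1.60 and 3.52. Parm1 (chromosome 5, 91665474 to 91774753), a membrane mucin gene used as a marker of these neurons, was at 2.56, 2.52, 3.04 and 2.28 in L5PT and at 0.56, 0.26, 0.30 and 0 in L5IT, where 0 UMIs in region 4 allows a level of up to 0.60. The 2 ranges did not overlap. The pooled ratio was 9.05 (4.04 to 25.1), resting on 6 UMIs in L5IT, and Parm1 was at 0.86 in non-neuronal cells.

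Bcl11b did not separate the subclass. Its Ensembl identifier is listed in the files under an older alias, Rit1, and was read by that identifier. The level was 1.04, 1.26, 1.48 and 0.61 in L5PT of regions 1 to 4 and 0.75, 0.78, 0.89 and 2.41 in L5IT, so L5PT was higher in regions 1 to 3 and lower in region 4. The pooled ratio was 0.916 (0.560 to 1.54) and 1.52 without region 4. L5PT at 1.10 was close to non-neuronal cells at 1.00, and L6CT at 1.53 was the highest of the 7 subclasses. Fezf2 and Parm1 were thus above the level of non-neuronal cells taken over all depths in L5PT, and Bcl11b was near it. Since the labels came from these transcriptomes, this describes the labelled cells and does not test the label.

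In single cells, Fezf2 was seen in 16.8% of L5PT cells (12.4 to 22.0) against 4.59% of non-neuronal cells, and in 8.37% against 2.16% at 500 UMIs per cell. Parm1 was seen in 30.5% of L5PT cells (24.9 to 36.5) against 8.06%, and in 8.76% against 3.76% at 500 UMIs. In non-neuronal cells of the depth band of L5PT, defined below, the shares were 4.85% for Fezf2 and 13.2% for Parm1. At 500 UMIs they were 3.30% (1.34 to 6.7) and 6.60% (3.66 to 10.8). Both intervals overlapped those of L5PT at 500 UMIs (5.25 to 12.5 and 5.57 to 13.0). Most L5PT cells thus had no UMI of either gene. That filter left out 5 L5PT and 116 non-neuronal cells with fewer UMIs. Not all of the other 9 markers listed for L5PT are reported here. Crym, which encodes a thyroid hormone binding protein, was at 1.75 in L5PT and 0.81 in L5IT. But it was at 1.49 in non-neuronal cells and higher still in L5NP (3.69) and L6CT (2.49). Ldb2, a LIM-domain binding cofactor, was at 1.83 in L5PT, 1.25 in L5IT and 0.78 in non-neuronal cells. Tcerg1l was at 0.51 in L5PT and 0.24 in L5IT, from 25 and 5 UMIs, with 0.10 in non-neuronal cells. Chrna6, a nicotinic receptor subunit known from a group of pyramidal tract neurons, gave 5 UMIs in L5PT and 0 in L5IT. Npsr1 and Slco2a1 gave 0 UMIs in L5PT, which allows a level of up to 0.061.

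Position was not used in the labelling, and by position L5PT was the most compact of the 7 glutamatergic subclasses. Depth was counted downward from the upper edge of each region, which the study set where layer 2/3 begins, and was stretched to the height of the tallest region. The direction of the axis came from where L2/3 and L6CT cells lay. The median L5PT cell lay at 407, 437, 424 and 429 µm in regions 1 to 4, and at 423 µm pooled (SD over regions 12.7 µm). The interquartile range was 74.1, 54.5, 52.2 and 58.6 µm by region and 62.5 µm pooled. The most compact of the other subclasses in any region was L6CT at 93.9 µm in region 3, so the ranges over regions did not overlap. Pooled, the interquartile range was 114 µm for L4, 123 µm for L6CT, 151 µm for L5IT and 225 µm for L5NP.

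**Figure D1:**
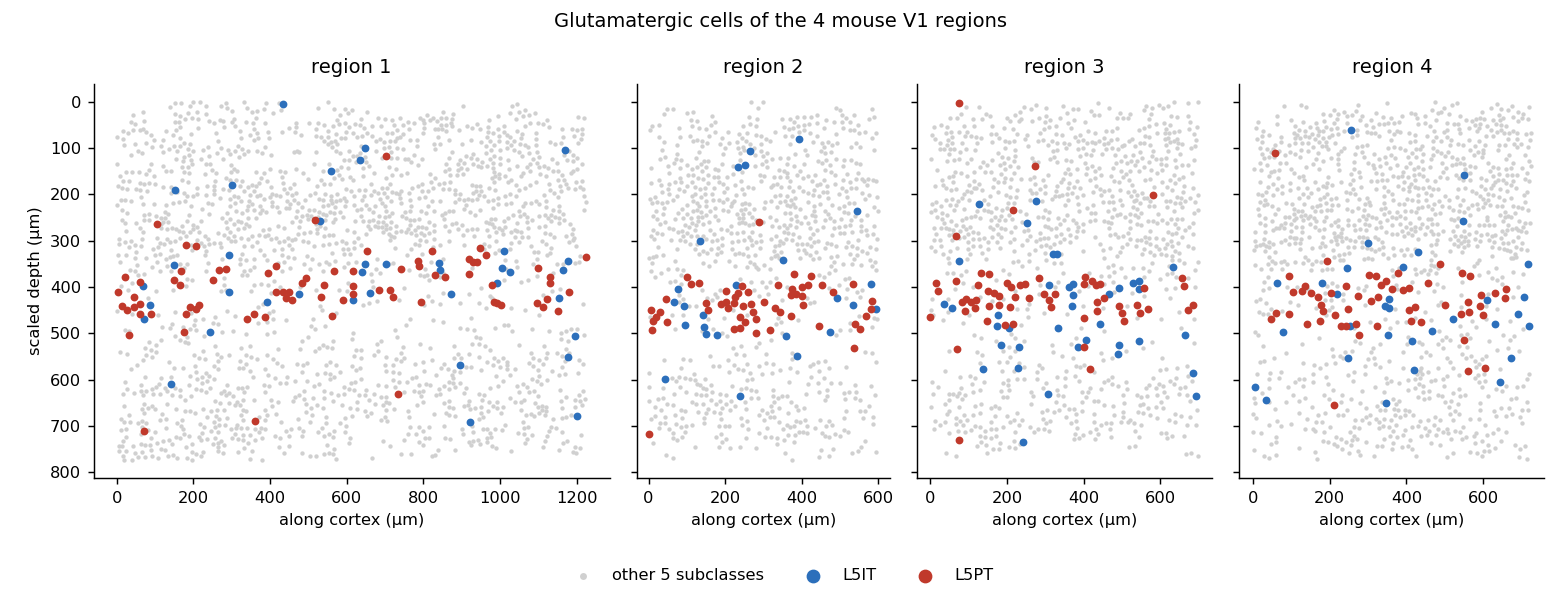
Glutamatergic cells of the 4 V1 regions, each panel 1 region, with distance along the cortex (µm) on the horizontal axis and scaled depth below the top of the region (µm) on the vertical axis. L5PT cells (red) form a thin sheet whose region medians lie between 407 and 437 µm, L5IT cells (blue) scatter above and below it, and cells of the other 5 subclasses are grey.

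The median depths of L5PT and L5IT were close when pooled, but their difference varied between regions. The pooled median of L5PT was 3.23 µm above that of L5IT (a difference of -3.23 µm). By region the difference was 38.5, -1.79, -29.9 and -22.2 µm, with L5PT deeper than L5IT in region 1 and shallower in regions 2 to 4. The SD over regions, 30.6 µm, exceeded the pooled difference, which changed sign when region 3 or region 4 was left out (1.55 and 6.44 µm). L5PT was narrower in spread than L5IT in each region, as the map of cell positions shows. The size of this contrast moved with the certainty of the labels, given by labelling round below. In the most certain cells, those of round 1, the interquartile range was 49.4 µm in L5PT and 82.7 µm in L5IT.

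The depth band between the 10th and 90th percentile of L5PT in each region held 1098 cells of all classes. By construction it held 78.9% of L5PT cells. It held 42.9% of L5IT cells (34.3 to 51.7) and 27.1% of L5NP cells (16.4 to 40.3). L5PT cells were 18.4% of all cells in the band, with 13.2, 26.6, 22.3 and 19.7% in regions 1 to 4, and the most numerous glutamatergic label there ahead of L4 (11.3%), L2/3 (7.65%) and L5IT (5.19%). Non-neuronal cells were 20.7% and GABAergic cells 7.38% of the band. Per mm of cortical width there were 65.3, 95.1, 88.6 and 78.7 L5PT cells in regions 1 to 4, and 2.11, 2.28, 1.63 and 1.78 L5PT cells for every L5IT cell. Their share of cells with 1 of the 7 labels was 4.07, 5.97, 5.71 and 4.41%, with intervals that overlapped between regions. Cells lost through missed transcripts were not counted, so these densities describe labelled cells only.

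L5PT cells had more neighbors of their own label than L5IT and L5NP cells had, while also being more numerous and more compact in depth. Among the 10 nearest cells of an L5PT cell, 18.8% were L5PT, with 14.5, 30.4, 18.4 and 13.9% in regions 1 to 4. This was close to the 18.4% of L5PT in its depth band, above the band share in regions 1 and 2 (13.2 and 26.6%) and below it in regions 3 and 4 (22.3 and 19.7%). Neighbor shares and distances move with the number of cells and their spread in depth, and clustering beyond the band share was not tested. For L5IT the share of its own label was 4.36% (2.89 to 6.58% over regions), below every region of L5PT, and for L5NP it was 1.19%. The dense L4 and L6CT subclasses reached 42.1% and 34.1%. At least 1 other L5PT cell was among the 10 nearest for 76.2% of L5PT cells, against 33.1% for L5IT. The nearest cell of the same label was 19.5 µm away at the median (15.5 to 30.5 between quartiles) for L5PT, 47.3 µm for L5IT and 103 µm for L5NP. The remaining neighbors of L5PT were, in order, non-neuronal cells (19.3%), glutamatergic cells of another or no subclass (12.9%), L4 (11.8%), L2/3 (8.71%), cells without a class (7.77%) and GABAergic cells (6.91%), with 3.59% L5IT.

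L5PT cells also yielded the most RNA per cell. The median was 1801.5, 2029, 1879 and 1994 UMIs in regions 1 to 4, and in each region this was above the median of every other glutamatergic subclass. Pooled, the median was 1916 UMIs (1418 to 2417 between quartiles) in L5PT, 1576.5 in L6CT, 1553 in L5IT, 1482 in L6IT, 1249.5 in L2/3, 1234 in L5NP and 1205 in L4. The median number of genes was 1156 in L5PT and 981 in L5IT. When every cell was thinned to 500 UMIs, L5PT had a median of 413 genes and the other 6 subclasses 400 to 409. The UMI count also moved with the certainty of the label: L5PT cells labelled in rounds 1, 2 and 3 of the classification, in which fewer and fewer atlas neighbors had to carry the label, had medians of 2158, 1890.5 and 1544. The part of labelling, of cell size and of segmentation in the UMI count was not tested.

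**Figure D2:**
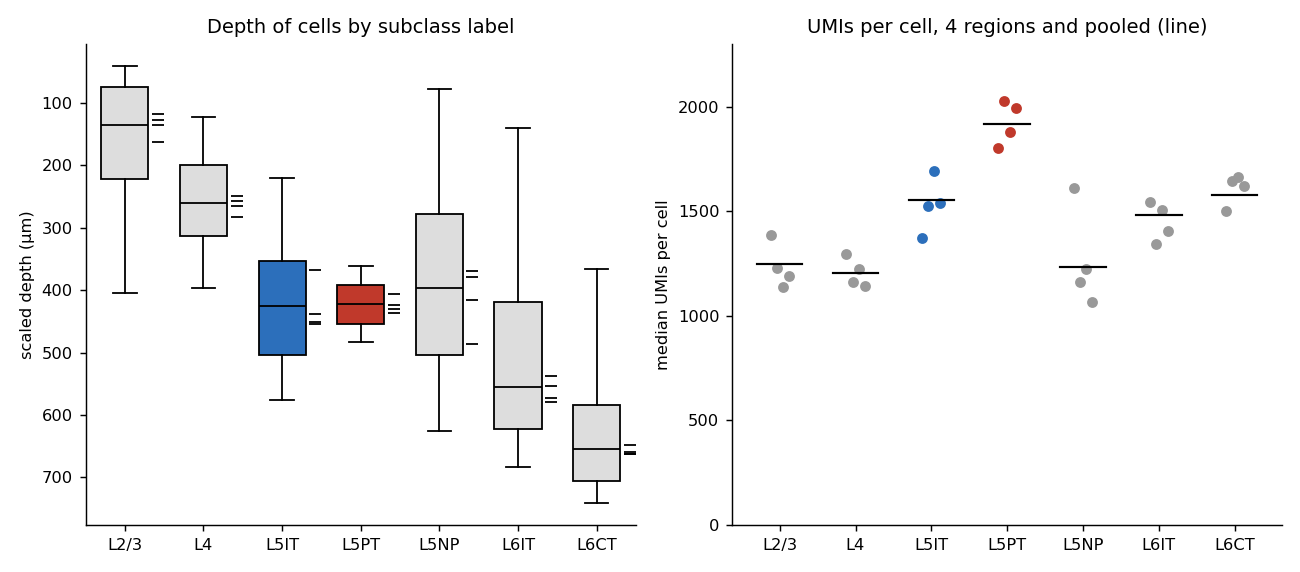
Left, scaled depth (µm) of the cells of each glutamatergic subclass, with boxes from the lower to the upper quartile, a line at the median, whiskers from the 10th to the 90th percentile and short ticks at the 4 region medians. Right, median UMIs per cell by subclass, with 1 point per region and a line at the pooled median; the 4 L5PT points (red) run from 1801.5 to 2029 and L5IT is blue.

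Comparison across genes first set L5PT against L5IT, the subclass that shares its layer. Of 61317 features, 2297 had a mean level of at least 1 UMI per 10000 over the 7 subclasses. A gene was called higher or lower where the pooled ratio was at least 1.5-fold and the direction was the same in all 4 regions. This gave 90 genes higher in L5PT, 3.92% of those tested, and 93 lower, 4.05%. At 3-fold or more, 8 of the higher and 4 of the lower genes were left. The median ratio over all tested genes was 0.990. Counts were thin on the L5IT side, with a median of 22 L5IT UMIs for genes called higher and 37 for all tested genes. Of the 90 higher genes, 28 were also called when cells were thinned to 500 UMIs and 39 when only cells of the depth band were used. Of the 93 lower genes, 40 and 30 were.

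**Figure D3:**
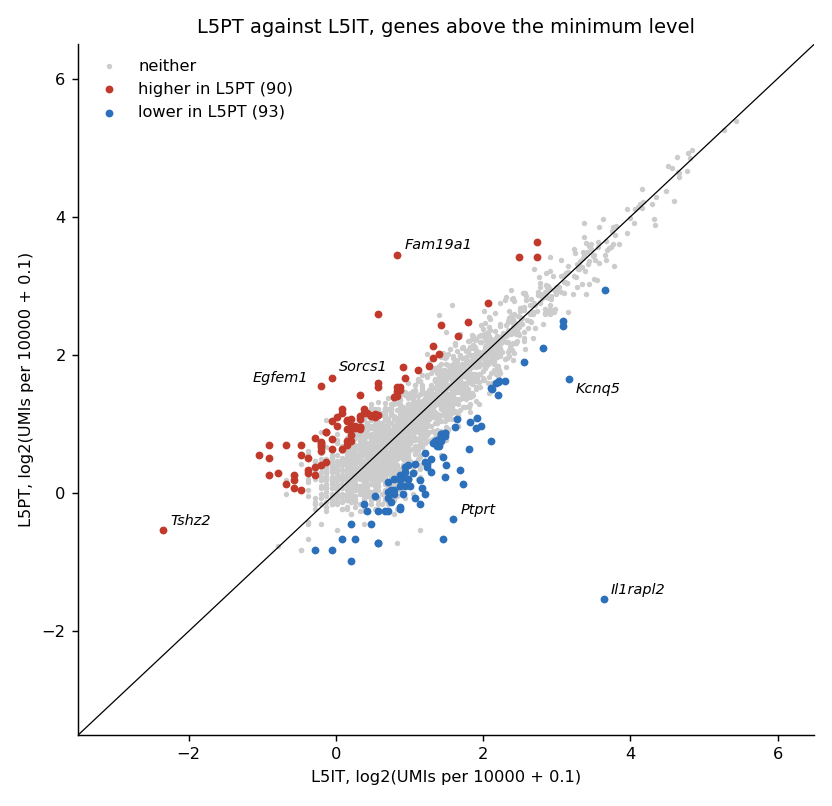
Level of each of the 2297 tested genes in L5IT (horizontal) and in L5PT (vertical), as log2 of UMIs per 10000 plus 0.1, with a line of equal levels. The 90 genes called higher in L5PT are red, the 93 called lower are blue, and Fam19a1 (10.8 in L5PT, 1.68 in L5IT) and Il1rapl2 (0.24 and 12.4) have the highest and the lowest ratio.

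Among genes above the minimum mean level, the highest ratio to L5IT was that of Fam19a1, now named Tafa1 (chromosome 6, 96090088 to 96635542), which encodes a secreted chemokine-like protein of the brain. It was at 12.7, 10.6, 9.30 and 10.4 in L5PT of regions 1 to 4 and at 1.5, 0.78, 1.78 and 2.41 in L5IT. The lowest L5PT region was well above the highest L5IT region. Pooled levels were 10.8 (9.95 to 11.8) and 1.68, a ratio of 6.47 (4.59 to 9.39), and 64.1% of L5PT cells had a UMI against 18.8% of L5IT and 11.2% of non-neuronal cells. At 500 UMIs per cell those shares were 31.9, 6.15 and 5.07%. L2/3, at 4.80, was the only other glutamatergic subclass above 2. The call held under each of the 13 alternatives run, with a ratio between 5.81 and 8.74. Among these, a minimum level of 0.5 cannot remove any call. The minimum level of 2 and the 2-fold limit read the same ratio again.

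Pex5l, a neuronal relative of a peroxisomal import receptor, was at 7.27, 4.79, 5.13 and 4.21 in L5PT and 6.00, 2.61, 2.23 and 2.61 in L5IT. It was higher in L5PT within each region, with a pooled ratio of 1.63 (1.25 to 2.15) and 1.87 in non-neuronal cells.

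Sorcs1, a sorting receptor that traffics synaptic proteins, was at 3.81, 4.37, 1.39 and 2.46 in L5PT and at 2.06, 1.31, 0.15 and 0.20 in L5IT. It was higher in L5PT in each region, although region 3 of L5PT lay below region 1 of L5IT. The pooled ratio was 3.56 (2.18 to 6.17). The call was lost without region 1 (ratio 6.13), without region 2 (3.48), in the mean over cells (3.91) and at a minimum level of 2. Egfem1 was at 2.36, 4.45, 1.57 and 2.98 against 1.69, 0.78, 0.45 and 0.20, a pooled ratio of 3.68 (2.19 to 6.63). Non-neuronal cells were at 0.43 for Sorcs1 and 0.48 for Egfem1. Meis2, a homeobox transcription factor, was at 1.52 in L5PT and 0.43 in L5IT, a ratio of 3.53 (1.77 to 8.03) from 9 UMIs in L5IT, with 0.95 in non-neuronal cells. The ratio was 6.15 without region 1, 2.33 without region 4 and 1.85 in the depth band, where the call was lost, as it was at a minimum level of 2. Meis2 stood at 1.66 in L5NP and 1.57 in L6CT, so L5IT, L4 (0.59) and L6IT (0.46) were the low subclasses.

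Of the other genes among the highest ratios, Tshz2 rested on 2 UMIs in L5IT and 5 more on 8 to 13. The 5 were Srsf11, a splicing factor (1.36 against 0.38), Adnp, a chromatin-associated homeobox protein (1.32 against 0.43), Lhfpl4, a partner of GABA-A receptors (1.52 against 0.53), Setbp1 (1.10 against 0.43) and Nol4 (1.52 against 0.62). Each of the 5 lost its call under 4 or 5 of the 13 alternatives. In non-neuronal cells they were at 0.997, 0.96, 1.12, 0.595 and 0.96. Adnp overlaps Gm20716 on the same strand, so the split of reads between them is uncertain. Gm20716 had 19 UMIs in L5PT and 10 in L5IT, against 65 and 9 of Adnp. Tshz2, a zinc finger gene that marks L5NP, was at 0.59 in L5PT and 0.10 in L5IT, a ratio of 6.15 (1.56 to 53.2), with 12.5 in L5NP and 0.345 in non-neuronal cells.

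Il1rapl2 (chromosome X, 136471357 to 137749670), from a family of synaptic adhesion proteins related to the interleukin 1 receptor, was the mirror image of Fam19a1. It was at 0.28, 0.25, 0.43 and 0 in L5PT and at 16.5, 15.9, 9.05 and 9.63 in L5IT, and 0 UMIs in region 4 of L5PT allows a level of up to 0.26. The L5PT level pooled over regions, 0.24 from 12 UMIs, equalled that of non-neuronal cells. L5IT, at 12.4 from 258 UMIs, was 50.7-fold higher (28.5 to 99.4). L6IT was at 1.75 and the other 4 subclasses were at or below 0.31. In cells, 4.30% of L5PT had a UMI (0.797% at 500 UMIs), 63.9% of L5IT (40.8%) and 2.51% of non-neuronal cells (1.14%).

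Kcnq5, a subunit of the potassium channel behind the M-current, was at 4.02, 3.70, 2.00 and 2.19 in L5PT and at 11.6, 7.06, 8.60 and 7.62 in L5IT. No L5PT region reached the lowest L5IT region. L5IT was 2.91-fold higher (2.33 to 3.63), and this call held under all 13 alternatives, as that of Il1rapl2 did. Kcnq5 was at 1.67 in non-neuronal cells. Ptprt, a receptor tyrosine phosphatase, was at 0.42, 0.84, 0.61 and 0.88 in L5PT against 3.94, 1.31, 3.86 and 1.81, with L5IT 4.36-fold higher (2.81 to 6.87) and L5PT below the non-neuronal level of 1.28. L5IT was also 2.69-fold higher for Cntnap5a, 2.74-fold for Unc5d and 2.74-fold for Stim2, an endoplasmic calcium sensor, whose ratio was gone in the depth band (L5IT 0.927-fold). Non-neuronal cells were at 0.47 for Cntnap5a, 0.68 for Unc5d, 1.0 for Stim2, 0.69 for Cdh12 and 1.22 for AC124561.1, so of these Cntnap5a alone was above them in L5PT (1.16). Cdh12, a cadherin, was 4.99-fold higher in L5IT and the noncoding AC124561.1 3.22-fold, but these genes overlap on the same strand and the split of reads between them is uncertain. Both calls were lost in the depth band, where L5IT was 4.90-fold and 2.23-fold higher. That of Cdh12 was also lost at a minimum level of 2, and that of AC124561.1 in the mean over cells.

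Against the unweighted mean of the 6 other subclasses, 51 genes were higher in L5PT, 2.22% of those tested, and 86 were lower, 3.74%, around a median ratio of 0.984. In cells of the depth band 24 of the 51 and 20 of the 86 were also called. Of the 51 genes, 19 were also higher than in L5IT, and of the 86, 35 were also lower. The 19 were 21.1% of the genes higher than in L5IT and 37.3% of those higher than in the other subclasses, and the 35 were 37.6% and 40.7%. L5IT is 1 of the 6, so the 2 comparisons share samples. Among the highest ratios were those of Fam19a1 (5.84), Sorcs1 (4.46), Egfem1 (2.98), Pex5l (2.61), Unc5c (2.51), Kcnn2 (2.29) and Rab3c (2.26). In the depth band the Fam19a1 ratio was 3.32, and the Sorcs1 call was lost without region 1, without region 2, in the mean over cells and at a minimum level of 2. Pex5l was at 5.46 in L5PT, 3.35 in L5IT and 1.02 to 2.28 in the other 5. Kcnn2, a calcium-activated potassium channel, was at 2.09 in L5PT, 0.64 to 1.29 in the other subclasses and 0.95 in non-neuronal cells. Rab3c, a synaptic vesicle GTPase, was at 6.11 in L5PT and 4.76 in non-neuronal cells of the same depth band, and its call was lost in that band, where the ratio to the other subclasses was 1.49.

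**Figure D4:**
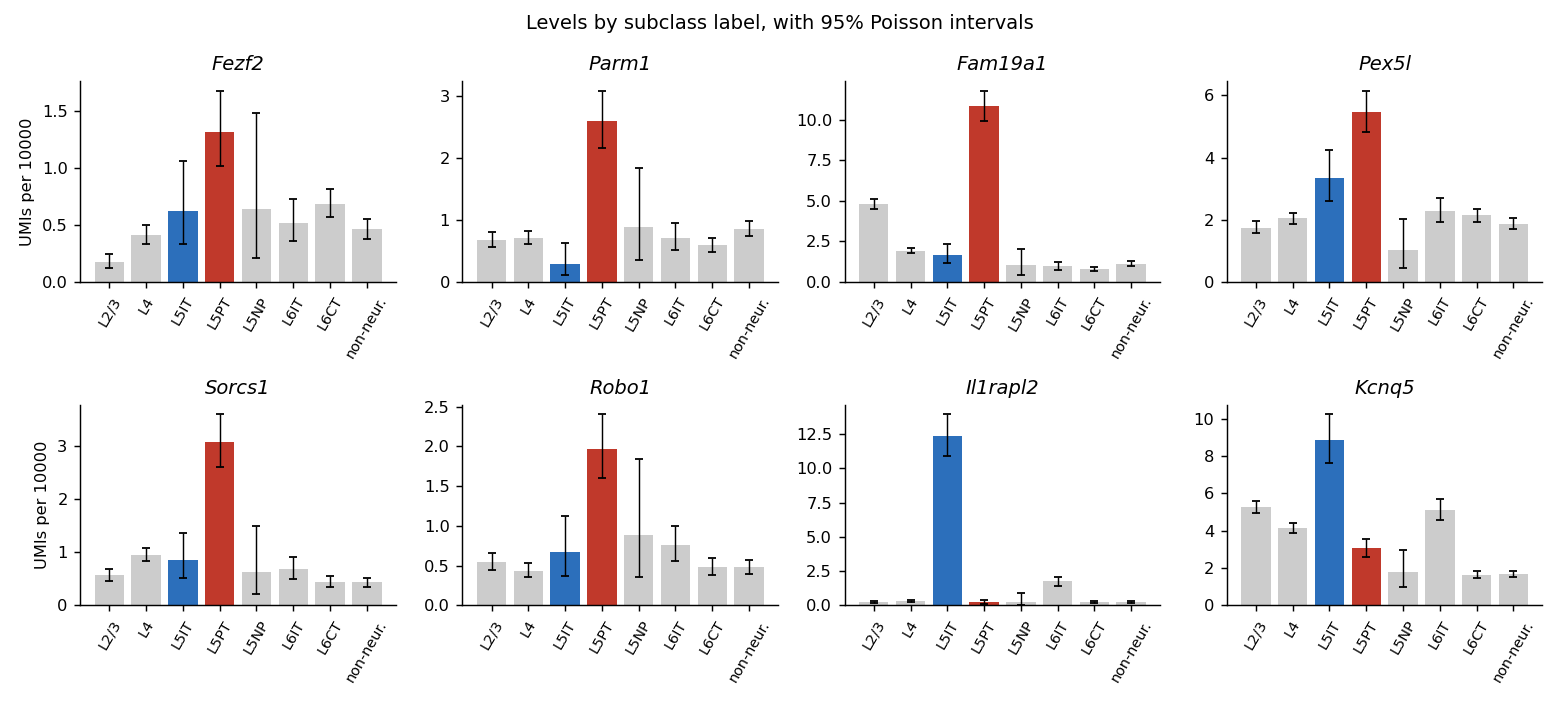
Levels of 8 genes (UMIs per 10000) in the 7 glutamatergic subclasses and in non-neuronal cells, with exact 95% Poisson intervals for counting error. L5PT (red) is the highest bar for Fezf2, Parm1, Fam19a1, Pex5l, Sorcs1 and Robo1, and L5IT (blue) for Il1rapl2 and Kcnq5; each panel has its own vertical scale.

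Among the lowest ratios to the other subclasses, the others were 10.4-fold higher for Il1rapl2, which is an L5IT gene here, and 3.92-fold for Tshz2, an L5NP gene. Rgs6, a regulator of G protein signaling, was 3.72-fold higher in the others, led by L2/3 (3.17) but above 1.6 in all except L4 (0.877). Rprm, a marker of corticothalamic cells, was 3.56-fold higher, led by L6CT (4.65). Unc5d was 3.16-fold higher, led by L4 (3.34), and Cdh18, a cadherin, 3.04-fold, led by L6CT (3.77). L5PT was below the non-neuronal level for Rgs6 (0.51 against 0.73), Rprm (0.53 against 2.54), Unc5d (0.51 against 0.68) and Cdh18 (0.49 against 0.63). AC124561.1 and Cdh12, each 3.05-fold higher in the others and led by L4, completed the 8. In the depth band 6 of the 8, all except Il1rapl2 and Rgs6, lost the call, with Rprm at 1.83-fold.

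Lists of genes were then read by their counts. Over all 2297 tested genes, 3.92% were higher and 4.05% lower than in L5IT. Against the other subclasses the shares were 2.22% and 3.74%. A single call in a list is therefore not read as a trait of the list. Of 12 L5PT markers, 2 had enough UMIs, Crym and Ldb2. Crym was called higher than in L5IT only, and Ldb2 higher than in the other subclasses only. Of 10 L6CT and L6b markers, 4 had enough UMIs, and Hs3st4, Rprm, Tbr1 and Tle4 were all lower than in the other subclasses (median ratio 0.451), with L6CT the highest of the 7 for each. The mean of the other subclasses includes L6CT itself. Against L5IT, Rprm was lower and the other 3 were not called. The L6CT and L6b list summed to 4.16 in L5PT, 5.89 in L5IT and 8.37 in non-neuronal cells. Over the 7 subclasses its sum ran from 3.80 to 20.4, so L5PT was not the lowest. The 1 tested marker of L5NP out of 5 was Tshz2, higher than in L5IT and lower than in the other subclasses. Of 14 IT and upper layer markers, 3 were tested, and the list summed to 7.92 in L5PT and 8.43 in L5IT. Calb1, a calcium buffer, was lower in both comparisons (0.41 in L5PT, 1.05 in L5IT, 2.21 in L2/3, 0.84 in non-neuronal cells). Etv1, an ETS factor known from layer 5, was higher than in the other subclasses, at 2.22, 1.93, 2.17 and 2.54 in regions 1 to 4 of L5PT and 1.69, 1.31, 1.93 and 0.80 in L5IT, with 1.03 in non-neuronal cells. Deptor, an inhibitor of mTOR and an L5IT marker, was at 0.39 in L5PT, 1.72 in L5IT and 0.42 in non-neuronal cells, below the minimum mean level. Cux1, Cux2 and Rorb, genes of the upper layers, were at 0.39, 0.55 and 0.79 in L5PT, below their non-neuronal levels of 0.55, 0.70 and 0.85.

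Of 21 projection neuron transcription factors, 10 had enough UMIs. None of them was called against L5IT. Against the other subclasses Etv1 and Ldb2 were higher and Tbr1 and Tle4 lower. Sox5, which controls the timing of corticofugal fates, fell below the minimum mean level but was at 2.36, 3.19, 1.13 and 1.05 in L5PT and at 0.19, 0.26, 0.30 and 0 in L5IT. The ranges did not overlap, and the pooled ratio was 10.3 (3.89 to 38.5) from 97 and 4 UMIs. In the other 5 subclasses Sox5 did not exceed 1.31, and it was at 0.64 in non-neuronal cells.

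Axon guidance genes had median ratios of 0.854 to L5IT and 0.848 to the other subclasses. Robo2, a receptor for Slit proteins, was at 22.0, 16.0, 8.87 and 10.7 in L5PT of regions 1 to 4 and at 14.1, 11.8, 8.31 and 7.62 in L5IT. It was higher in L5PT in every region, although regions 3 and 4 of L5PT lay below region 2 of L5IT. The pooled levels were 14.9 and 10.2, with 5.06 in non-neuronal cells, and the ratio was 1.45 (1.24 to 1.70) to L5IT, just under the 1.5-fold of a call, and 1.66 to the other subclasses. Robo1, its paralog, was at 2.49, 1.85, 1.30 and 2.11 in L5PT and 0.38, 0, 0.74 and 1.40 in L5IT, where 0 UMIs in region 2 allows up to 0.78. It was below the minimum mean level, with a ratio of 2.94 (1.67 to 5.57) and 0.48 in non-neuronal cells. Unc5c, a netrin receptor, was at 3.81, 1.43, 1.57 and 2.19 in L5PT and 1.88, 0.78, 1.63 and 0.60 in L5IT, with region 3 the exception to a higher level in L5PT, and at 0.62 in non-neuronal cells. The related Unc5d was low, as given above, and Dcc, the receptor with which both act, was at 0.79 in L5PT, 0.72 in L5IT and 5.35 in L5NP. Of 11 tested genes of the list, 0 were higher and 1 (Unc5d) lower than in L5IT, and 2 (Robo2 and Unc5c) were higher and 3 (Dcc, Epha4 and Unc5d) lower than in the other subclasses.

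Of the excitability genes reported here, Kcnc2 was lower than in L5IT. Against the other subclasses, Kcnn2 and Scn1a, a sodium channel, were higher and Kcnc2 lower. Kcnc2, a potassium channel of fast-spiking cells, was at 0.69, 0.50, 0.78 and 0.97 in L5PT and 1.13, 2.09, 1.48 and 1.61 in L5IT, without overlap, and its pooled level in L5PT, 0.73, was below the 0.90 of non-neuronal cells. Scn4b, a sodium channel accessory subunit, fell below the minimum mean level, at 0.93 and 0.43. The 3 sodium pump subunits were called in neither comparison, and the median ratio over the 15 tested genes of the list was 1.02 to L5IT and 1.00 to the others.

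Genes of the long axon summed to 70.4 in L5PT, the highest of the 7 subclasses, 65.0 in L5IT, 60.7 as the mean of the other subclasses and 63.1 in non-neuronal cells. In regions 1 to 4 the sums were 59.0, 76.3, 81.3 and 67.8 in L5PT and 63.2, 58.5, 73.0 and 61.0 in L5IT. L5PT was thus the lower in region 1. Of 13 tested, Ina (alpha-internexin, a neurofilament protein) alone was higher than in L5IT and than in the other subclasses, at 1.85 in L5PT, 1.15 in L5IT and 1.24 in non-neuronal cells. Nefl was at 4.83 and 3.93, Nefm at 3.21 and 3.30, and Nefh at 0.63 and 0.48, the last below the minimum mean level. Spp1 and Sncg, markers of large projection neurons in other regions, gave 0 and 1 UMI in L5PT. The median ratio of the list was 1.01 to L5IT and 1.17 to the other subclasses, against 0.990 and 0.984 over all tested genes. Of 15 calcium and calmodulin genes, Gap43, a growth-associated protein of axons, was higher in both comparisons, at 4.57, 5.13, 4.52 and 2.81 in L5PT and 2.06, 3.40, 2.52 and 1.81 in L5IT. Region 4 of L5PT lay below region 2 of L5IT, and non-neuronal cells were at 2.95.

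Of 16 tested genes of the glutamatergic synapse, Grik2, a kainate receptor subunit, was higher than in L5IT (2.13 against 1.25, and 1.21 in non-neuronal cells). Gria4, an AMPA receptor subunit, was lower in both comparisons, at 2.15, 0.76, 1.13 and 1.14 in L5PT and 3.56, 2.61, 2.23 and 2.21 in L5IT. All 4 L5PT regions lay below the lowest L5IT region, and non-neuronal cells were at 1.39, above the pooled 1.34 of L5PT. Slc17a7 was at 8.0 in L5PT, the lowest of the 7 subclasses, against 10.7 in L5IT (ratio 0.746, 0.632 to 0.883), but within the 1.5-fold limit. Of 19 tested genes of energy metabolism none was called against L5IT, and Ckmt1, the mitochondrial creatine kinase, was the 1 gene higher than in the other subclasses (3.94 in L5PT, 2.58 as their mean, 2.48 in non-neuronal cells). The median ratios were 1.05 and 1.06 for the synapse list and 1.03 and 1.09 for the energy list.

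Markers of other cell classes were read in the same way. Astrocyte markers summed to 13.8 in L5PT, the lowest of the 7 subclasses, 19.6 in L5IT and 26.1 in non-neuronal cells. Of the 4 tested, Apoe and Slc1a2, the astrocytic glutamate transporter, were lower than in L5IT, Slc1a2 with 7.97, 8.23, 7.83 and 6.14 against 15.2, 10.5, 12.5 and 11 in regions 1 to 4. Oligodendrocyte markers summed to 20.7 in L5PT, 24.8 in L5IT and 44.9 in non-neuronal cells, with none of 3 called. Microglia markers summed to 2.07, 2.30 and 3.34 with none above the minimum mean level, and endothelial markers to 5.0, 4.79 and 6.95 with Bsg the 1 gene tested and not called. No marker of these 4 lists was at 0 in L5PT. Of 4 tested GABAergic markers, Lamp5, which also marks upper layer pyramidal cells, was higher than in L5IT (2.58 against 1.15, L2/3 2.81) and Sst lower (2.76 against 4.21). Whether the lower astrocyte sum took part in the other gene differences was not tested.

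L5PT was not uniform by the certainty of its label. Classification had assigned 69 of the cells in round 1, 164 in round 2 and 23 in round 3. Fam19a1 was at 18.3, 7.02 and 9.60 in these 3 sets, Sorcs1 at 6.26, 1.65 and 0.823, and Pex5l at 9.29, 3.73 and 3.02. Fezf2 (1.52, 1.34 and 0.274) and Parm1 (2.78, 2.69 and 1.10) were near equal in rounds 1 and 2, and round 3 held 1 and 4 UMIs of them. Slc17a7 ran the other way, at 6.13, 8.40 and 12.9. Round 1 cells were also the most compact in depth, with an interquartile range of 49.4 µm against 63.0 and 118 µm, and 92.8, 75.6 and 60.9% of the cells of rounds 1, 2 and 3 lay in the depth band. Since the round depends on how closely a transcriptome resembles the atlas cells, marker levels by round are a description, whereas depth was measured apart from it. For L5IT the depth interquartile range was 82.7, 165 and 203 µm in rounds 1, 2 and 3. Of these L5IT cells, 69.0, 37.7 and 31.4% lay in the depth band. L5IT cells of rounds 1, 2 and 3 had Fezf2 at 1.36 (0.545 to 2.79), 0.368 and 0.411. Their Pex5l was at 4.07, 3.78 and 1.65. Fezf2 in round 1 and Pex5l in round 2 were thus about level between L5PT and L5IT.

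**Figure D5:**
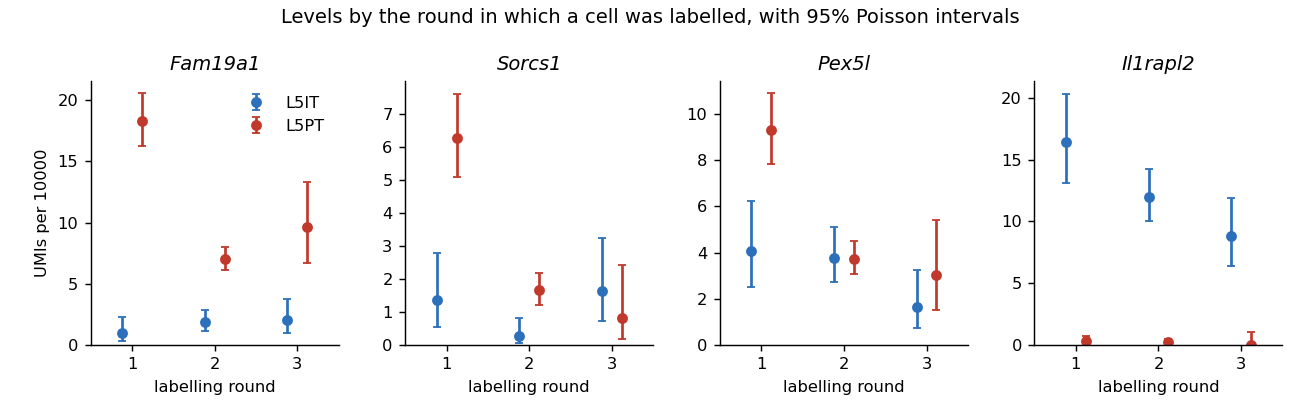
Levels (UMIs per 10000, exact 95% Poisson intervals for counting error) of 4 genes in L5PT (red) and L5IT (blue) cells labelled in rounds 1, 2 and 3. Fam19a1, Sorcs1 and Pex5l are highest in round 1 of L5PT (18.3, 6.26 and 9.29), and Il1rapl2 stays near 0 in L5PT in every round.

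Type labels, a finer level of the same classification, were available for part of the cells. Of the 256, 115 carried the type L5PT_A, 10 the type L5PT_B and 90 no type. The remaining 41 carried a type of another subclass, among them 15 with the type Micro and 9 with the type L2/3_B. Fam19a1 was at 14.8 in L5PT_A cells and at 6.52 in cells without a type. The depth interquartile range was 51.6 µm in L5PT_A and 83.5 µm in cells without a type. The 41 cells with a type of another subclass still had Fam19a1 at 5.64, with a depth interquartile range of 66.2 µm.

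Fam19a1 was also raised in glutamatergic cells with other labels that lay close to L5PT. In the depth band it was at 5.56 (4.38 to 6.96) in those within 15 µm of an L5PT cell, 3.65 (3.09 to 4.30) between 15 and 30 µm and 2.27 (1.72 to 2.94) farther away. In non-neuronal and GABAergic cells the levels were 1.64, 1.75 and 1.44, with overlapping intervals. Sorcs1 did not follow this order, at 0.73, 0.60 and 1.12 in the glutamatergic cells. Fezf2 was at 1.39, 1.14 and 0.88 in the glutamatergic cells, with overlapping intervals. In the non-neuronal and GABAergic cells it was at 1.17 (0.563 to 2.16, from 10 UMIs), 0.614 and 0.393 (0.144 to 0.856). The first of these was near the pooled Fezf2 level of L5PT. Parm1 was at 1.64, 1.80 and 1.38 in the non-neuronal and GABAergic cells. The mix of labels among these cells was not matched between distances, and how much of the Fam19a1 level near L5PT was RNA counted in a neighboring cell, and how much cells that missed the label, was not tested.

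Within the sheet, L5PT cells were split at the median depth of their own region into 129 shallower and 127 deeper cells, with median depths of 391.97 and 455 µm. Their UMI counts were near equal (medians 1888 and 1936). Of 977 genes with a mean level of at least 2, 17 were higher in the deeper cells, 1.74%, and 19 lower, 1.94%, by the same rule. Fam19a1, at 12.4 in deeper and 9.26 in shallower cells, and Parm1, at 2.91 and 2.27, were called in neither direction. Fezf2, Bcl11b, Crym and Ldb2 were below the mean level of 2 in L5PT and could not be called. The 5 highest ratios were those of Cntn4, a contactin of axons (2.17, 1.48 to 3.21), Mgea5, now named Oga, the enzyme that removes O-GlcNAc (2.08), Itpr1, the inositol trisphosphate receptor (1.80), Mdga2, an adhesion protein (1.77), and Ttc19, a mitochondrial assembly factor (1.70). Cntn4 was at 5.35, 3.33, 2.89 and 2.54 in deeper cells and 2.81, 0.51, 1.42 and 1.87 in shallower cells of regions 1 to 4. Shallower cells were 2.13-fold higher (1.41 to 3.27) for Rpl7, a ribosomal protein, 1.87-fold for Pdxp, 1.85-fold for Syn2, a synaptic vesicle protein, 1.81-fold for Pik3r1 and 1.75-fold for Eif5a. At 500 UMIs per cell, 4 of the 17 and 6 of the 19 genes kept their call.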

How the data were processed

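Segmented cells of 1 mouse sample, each with a position, a V1 region where it lay in one, and labels of class, subclass and type, were analysed. The authors aligned the Stereo-seq reads to GRCm39 with the SAW pipeline, segmented cells, and deposited the raw UMI count of each gene in each cell. They drew the V1 regions by hand, spanning layers 2/3 through 6, removed cells with fewer than 50 genes or 100 UMIs and labelled the rest in 3 rounds by nearest neighbors in a single-nucleus atlas. A label is therefore not independent of expression. No doublet caller was run here, and segmented cells of a section can hold RNA of their neighbors.

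Counts were summed over cells and divided by the summed UMIs. A gene was tested where its mean level over the 7 subclasses was at least 1 per 10000, and called at 1.5-fold or more with 1 direction in all 4 regions. Exact Poisson, conditional ratio and Clopper-Pearson 95% intervals cover counting error only, and a count of 0 was given the limit of 3 counts. Depth ran along the side of the smallest rectangle enclosing each region that best separated L2/3 from L6CT cells, scaled to the tallest region. Gene symbols are those of the files, and 61249 of 61317 identifiers were found in the GENCODE annotation, from which coordinates come. Up to 12 genes above and 8 below L5IT, 8 above and 8 below the other subclasses, and 5 each way by depth were named by rank of ratio among called genes, with the members of 16 lists of 192 genes in all. Some genes that these rules name are not reported here. The members and lists were chosen with earlier results of these data known. The opossum counts were not used here. Python 3.11.15 with numpy 2.4.6, scipy 1.17.1, pandas 2.3.3 and matplotlib 3.10.9 was used, and the scripts were tested on simulated data. Alternatives were another minimum level, another fold, thinning to 500 UMIs, a mean over cells, cells of 1 depth band, earlier labelling rounds, typed cells, unscaled depth and leaving out each region.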

Additional observations from a re-analysis of the deposited data

How the results depend on the processing

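No paired analysis was possible because each group is 1 set of cells from 1 animal. Of 117 alternative values, 75 stayed within the limits set for them, 40 moved and 2 changed sign. At a minimum level of 0.5, 245 genes were higher and 188 lower than in L5IT, and 117 higher and 211 lower than in the other subclasses. At a minimum of 2 these counts were 25, 34, 16 and 30, and at 2-fold 27, 26, 13 and 25. Thinning gave 143 genes lower than in the other subclasses, and typed cells only, an alternative chosen after seeing the data, gave 138. Leaving out 1 region, which asks fewer regions to share a direction, gave 141 to 160 genes higher and 144 to 152 lower than in L5IT, and 59 to 70 higher and 109 to 134 lower than in the others. Between deeper and shallower L5PT cells, thinning gave 44 higher and 31 lower genes, a minimum level of 1 gave 68 and 88, and leaving out a region 29 to 38 and 29 to 36. The median depth was 379.5 µm and the interquartile range 72.7 µm on unscaled depth, and the interquartile range was 49.4 µm in cells of round 1 and 51.0 µm in typed cells. The depth difference from L5IT was -10.2 µm on unscaled depth and -16.4 µm in cells of round 1. It ran from -12.4 to 6.44 µm when a region was left out, and was 1.55 µm without region 3 and 6.44 µm without region 4. Where construction does not show it, the cause was not tested. Sets of 133 L5IT and 59 L5NP cells limit ratios of genes near the minimum level.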
